A study of Mus musculus with 9 samples.

Results

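The antioxidant enzymes described here are the 10 genes *Sod1*, *Sod2*, *Cat*, *Gpx1*, *Gpx4*, *Prdx1*, *Prdx2*, *Prdx3*, *Prdx5* and *Txn2*. They were picked by gene symbol, and each matched a single entry among the 55335 entries that every library lists. All 10 were listed above 0 in every library, and 9 of them passed the filter for testing, an average of 1 FPKM or more across all 9 libraries, while *Cat* did not.

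Cells that respire leak electrons to oxygen and so form superoxide. Superoxide dismutases turn superoxide into hydrogen peroxide, SOD1 mainly in the cytosol and SOD2 in the mitochondrial matrix. Hydrogen peroxide is then removed by catalase in peroxisomes, by glutathione peroxidases with electrons from glutathione, and by peroxiredoxins with electrons from thioredoxin. Preimplantation embryos carry mitochondria and transcripts inherited from the oocyte and are known to be sensitive to oxidative stress in culture.

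RNA was measured in pools of 8-cell mouse embryos of the ICR strain that had been made by in vitro fertilization, injected with siRNA into the cytoplasm as zygotes and cultured in KSOM medium. Control embryos were injected with nontargeting siRNA. MFN1-KD embryos were injected with siRNA against *Mfn1*, which encodes the mitochondrial fusion GTPase mitofusin 1, and H3.3-KD embryos with siRNA against *H3f3a* and *H3f3b*, which both encode the histone variant H3.3. There were 3 libraries in each of these 3 groups, and the pools were given as 5 to 10 embryos in the labels and as 10 embryos in the methods, so the number of embryos behind a library is uncertain. The comparison asks whether these transcripts changed after either knockdown. A knockdown leaves part of the target, the methods name both young and naturally aged ICR females without tying either to these embryos, and no source says whether the libraries of a group came from separate injections, so p-values measure only the spread between these libraries.

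Values are FPKM, in which fragment numbers are divided by gene length and by the total of each library, and they compare levels between genes only per length. The depth of the libraries is unknown. In such pools, fewer cells and less RNA per cell cannot be told apart. *Mfn1* was at 5.03 ± 4.23 FPKM (SD, n = 3) in MFN1-KD and 32.6 ± 16.4 in control, and *H3f3a* and *H3f3b* were at 149 ± 28.3 and 246 ± 70.3 FPKM in H3.3-KD and 1932 ± 293 and 2988 ± 154 in control, so the targeted genes were low in the groups labelled for them. MFN1-KD replicate 3 stood apart, with 15577 genes above 0 FPKM against 19250 to 24820 in the other libraries. The FPKM of all entries added up to 933452 to 968604 in H3.3-KD and to 1113563 to 1331977 in control. The 8 embryo markers added up to 10820 to 14026 FPKM in control, 16883 to 20528 in MFN1-KD and 6577 to 8419 in H3.3-KD, sums that are almost all *Dppa3*. Of the 7 tested embryo markers, *Dppa3* was called lower in H3.3-KD and 4 were called higher, *Klf5*, *Pou5f1*, *Tfap2c* and *Tead4*, against 21.8% of all genes. The median log2 fold change of the 7 was 1.28, against 0.26 over all genes. *Pou5f1* moved the most of these 4, from 7.73, 8.90 and 5.10 FPKM in control to 330, 392 and 63.1 in H3.3-KD. The 8 cumulus cell markers added up to 16.2 to 29.9, 10.3 to 19.4 and 38.2 to 66.9 FPKM in the same order, and nearly all of this was *Amhr2*, at 16.05 to 29.8 FPKM in control and 38.01 to 66.1 in H3.3-KD, where it was called higher. The other 7 cumulus markers did not exceed 0.55 FPKM in any library, with *Fshr* and *Inhba* at 0 in all. The 6 sperm markers did not exceed 2.93 FPKM, and the 6 blood markers added up to 82.7 to 108 FPKM in control, 19.98 to 81.7 in MFN1-KD and 17.5 to 25.3 in H3.3-KD. These sums moved with the groups, and their part in the results was not tested.

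Promoter sequence was available from RefSeq (assembly GRCm38.p6) for all 10 genes, in 13 promoters because *Gpx4* has 4. The 250 bases before each start were searched on both strands for the core of the antioxidant response element, TGACNNNGC, which is bound by NRF2 with small MAF proteins, and for TATAAA and GGGCGG, the letters of the TATA box and the GC box, which do not overlap the core in the promoters shown. The element core was found in 2 of the 10 genes, *Sod1* and *Prdx1*, and in 10.2% of the 32851 promoters of the table. TATAAA was found in 3 genes, *Sod1*, *Prdx1* and *Prdx3*, and in 12.4% of all promoters, whereas GGGCGG was found in 8 genes and in 32.7% of all. A gene counts if any of its promoters holds the letters, while the shares are of single promoters. The promoters of *Sod1* (chr16:90220512-90220761, plus strand), *Prdx1* (chr4:116685349-116685598, plus strand) and *Sod2* (chr17:13007589-13007838, plus strand) are shown because the first pair hold the core and the last, that of the other dismutase, does not. Capitals mark the element core, which both promoters hold on the minus strand, and the TATAAA letters.
Sod1: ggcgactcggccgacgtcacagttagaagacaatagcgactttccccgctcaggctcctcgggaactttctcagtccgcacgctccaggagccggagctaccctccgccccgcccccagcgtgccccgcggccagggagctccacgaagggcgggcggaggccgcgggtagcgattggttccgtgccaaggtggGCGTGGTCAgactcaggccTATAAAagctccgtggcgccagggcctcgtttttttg
Prdx1: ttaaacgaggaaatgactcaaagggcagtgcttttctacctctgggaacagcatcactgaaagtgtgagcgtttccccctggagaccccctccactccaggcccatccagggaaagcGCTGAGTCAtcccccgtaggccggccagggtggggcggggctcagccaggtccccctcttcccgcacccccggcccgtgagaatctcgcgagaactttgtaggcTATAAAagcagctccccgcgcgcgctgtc
Sod2: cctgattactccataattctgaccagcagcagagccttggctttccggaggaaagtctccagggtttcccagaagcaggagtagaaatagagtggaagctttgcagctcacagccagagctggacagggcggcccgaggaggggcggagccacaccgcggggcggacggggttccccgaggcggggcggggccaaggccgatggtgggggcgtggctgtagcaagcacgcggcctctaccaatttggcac
Counted back from the start, the core lies at bases 56 to 48 in *Sod1* and at bases 133 to 125 in *Prdx1*, and TATAAA lies at bases 37 to 32 and 29 to 24. The GC content of these promoters was 66.4% for *Sod1*, 61.6% for *Prdx1* and 63.6% for *Sod2*, and the median of all promoters was 52.4%. They held 26, 15 and 15 CpG sites, against a median of 6. These matches are letters in a window and do not show binding.

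In control embryos the level of these transcripts per length fell into tiers. *Sod1* was the highest at 475 ± 93.7 FPKM (SD, n = 3), followed by *Prdx1* at 394 ± 50.8 and *Gpx1* at 389 ± 46.6, and the libraries of neighbours among these 3 genes overlapped. *Gpx4* at 152 ± 9.82 FPKM lay below *Gpx1* and above *Sod2* with no overlap. *Sod2* at 109 ± 18.2, *Prdx3* at 105 ± 27.3, *Prdx5* at 101 ± 9.51 and *Txn2* at 91.3 ± 25.5 FPKM overlapped from neighbour to neighbour. *Prdx2* followed at 43.2 ± 3.97 FPKM and *Cat* was last at 0.517 ± 0.189. Ranked among the 13011 genes tested, *Sod1* stood at the 96.9th percentile of a control library on average and *Prdx2* at the 81.5th. In MFN1-KD *Sod1* remained first and every neighbouring pair from *Sod1* down to *Prdx3* overlapped. In H3.3-KD the order began with *Gpx1*, *Prdx1* and *Sod1*, and *Sod2* lay directly below them with no overlap between *Sod1* and *Sod2*.

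**Figure D1:**
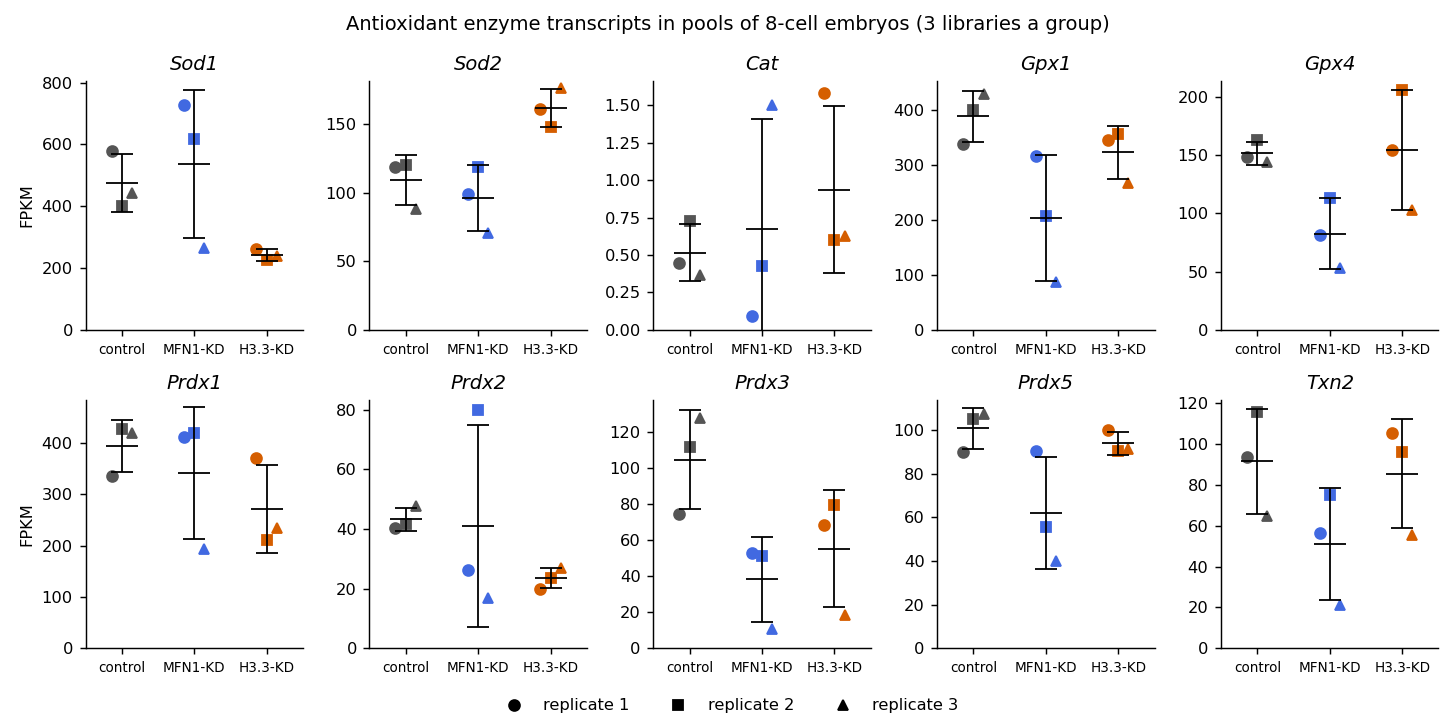
FPKM (y axis of each panel, linear, from 0) of the 10 genes in the 3 groups (x axis). Points are libraries, with a marker shape per replicate number, and bars are the mean ± SD of 3 libraries (the bar of *Cat* in MFN1-KD runs below 0 and is clipped at the axis). *Sod1* lies between 225 and 262 FPKM in H3.3-KD and *Sod2* between 148 and 176, with no overlap with control in either gene. Of all genes tested, 18.9% were lower and 34.5% higher in H3.3-KD with no overlap.

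In H3.3-KD embryos every library lay below the controls for *Sod1* and above them for *Sod2*, and neither superoxide dismutase passed the threshold against control. Of all genes tested, 18.9% lay below the controls in this way and 34.5% above them. *Sod1*, the cytosolic copper and zinc enzyme (ENSMUSG00000022982.10, chr16:90220754-90226329, plus strand), was at 580, 401 and 444 FPKM in control replicates 1 to 3, at 728, 616 and 266 in MFN1-KD and at 262, 225 and 240 in H3.3-KD. MFN1-KD replicate 3 lay far below the other MFN1-KD libraries. *Sod1* in H3.3-KD was 51.0% of control, a log2 fold change of -0.95 (SE 0.34, 95% interval -1.70 to -0.21), and it missed the threshold with an adjusted p of 0.0528 by limma. In MFN1-KD its log2 fold change was 0.07 (SE 0.34, 95% interval -0.67 to 0.81), with an adjusted p of 0.934 by limma, and its sign turned under upper-quartile scaling. *Sod2*, the manganese enzyme of the mitochondrial matrix (ENSMUSG00000006818.5, chr17:13006846-13040063, plus strand), was at 119, 120 and 88.1 FPKM in control, at 99.4, 119 and 70.7 in MFN1-KD and at 162, 148 and 176 in H3.3-KD. Every H3.3-KD library lay above every other library for *Sod2*, while the control and MFN1-KD libraries overlapped. *Sod2* in H3.3-KD was 148% of control, a log2 fold change of 0.58 (SE 0.24, 95% interval 0.04 to 1.12) that missed the threshold with an adjusted p of 0.0981 by limma.

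Set directly against MFN1-KD, H3.3-KD embryos held less *Sod1* and more *Sod2*. *Sod1* fell by 1.02 on the log2 scale (SE 0.34, adjusted p = 0.0339 by limma) and *Sod2* rose by 0.77 (SE 0.24, adjusted p = 0.0290 by limma). Of the 18 alternatives, 9 gave a call for *Sod1* and 9 for *Sod2* in this comparison. Without MFN1-KD replicate 3 *Sod2* was at 0.57 with an adjusted p of 0.0691 by limma, and *Sod1* remained called.

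The ratio of *Sod1* to *Sod2* within a library does not depend on how libraries are scaled. It was 4.87, 3.33 and 5.04 in control, 7.32, 5.17 and 3.77 in MFN1-KD and 1.62, 1.52 and 1.36 in H3.3-KD. The H3.3-KD values lay below all others, and the log2 ratio was 1.53 lower on average than in control, with an exact two-sided permutation test of 3 against 3 libraries unable to go below 0.10. Of the 36 ratios between the 9 tested genes, 14 did not overlap between H3.3-KD and control and 13 did not overlap between MFN1-KD and control. Over all pairs of tested genes these shares were 52.5% and 29.2%, so the counts among the antioxidant enzymes lay below and near the background. *Sod1* took 25.6 ± 5.56% (SD, n = 3) of the summed FPKM of the 10 genes in control, 36.5 ± 2.23% in MFN1-KD but 17.3 ± 2.19% in H3.3-KD. *Sod2* took 5.88 ± 1.02%, 7.16 ± 2.00% and 11.7 ± 2.48% in the same order.

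Catalase was nearly absent from these libraries. *Cat*, whose enzyme splits hydrogen peroxide in peroxisomes without a reducing partner (ENSMUSG00000027187.10, chr2:103453849-103485160, minus strand), was at 0.45, 0.73 and 0.37 FPKM in control, at 0.09, 0.43 and 1.5 in MFN1-KD and at 1.58, 0.60 and 0.63 in H3.3-KD. The groups overlapped, and *Cat* was not tested by limma because its mean was under 1 FPKM. The exact two-sided permutation p was 0.9 for MFN1-KD against control and 0.3 for H3.3-KD against control, where 0.10 is the smallest possible. It was the only gene of the 10 that was highest among the MFN1-KD libraries in replicate 3.

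Every MFN1-KD library lay below every control for both glutathione peroxidases, as for 16.8% of all genes tested. Neither gene passed the threshold against control in either knockdown. *Gpx1*, which encodes the selenoenzyme that reduces soluble hydroperoxides in cytosol and mitochondria (ENSMUSG00000063856.7, chr9:108338903-108340343, plus strand), was at 338, 400 and 430 FPKM in control, at 316, 208 and 87.0 in MFN1-KD and at 347, 356 and 267 in H3.3-KD. Among the MFN1-KD libraries, replicate 1 came close to the lowest control. *Gpx1* in MFN1-KD was 52.3% of control, a log2 fold change of -1.11 (SE 0.39, 95% interval -1.97 to -0.25) with an adjusted p of 0.127 by limma. *Gpx4*, which encodes the selenoenzyme that reduces lipid hydroperoxides in membranes and so restrains ferroptosis (ENSMUSG00000075706.10, chr10:80047166-80056439, plus strand), was at 148, 163 and 144 FPKM in control, at 81.6, 113 and 52.8 in MFN1-KD and at 155, 206 and 103 in H3.3-KD. The H3.3-KD libraries lay on both sides of the controls. *Gpx4* in MFN1-KD was 54.4% of control, a log2 fold change of -0.93 (SE 0.32, 95% interval -1.64 to -0.23) with an adjusted p of 0.120 by limma. In H3.3-KD the log2 fold change against control was -0.27 (95% interval -1.13 to 0.59) for *Gpx1* and -0.03 (95% interval -0.73 to 0.68) for *Gpx4*. *Gpx4* was higher in H3.3-KD than in MFN1-KD by 0.91 on the log2 scale (SE 0.32, adjusted p = 0.0449 by limma). With the trend over GC content and transcript length removed this difference was 0.08 with an adjusted p of 0.846, and without MFN1-KD replicate 3 it was 0.62 with an adjusted p of 0.119 by limma.

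The cytosolic peroxiredoxin genes *Prdx1* and *Prdx2* did not pass the threshold in any comparison. In H3.3-KD against control, 2 of the 18 alternatives gave a call for *Prdx1* and 4 for *Prdx2*. *Prdx1*, an abundant thiol peroxidase (ENSMUSG00000028691.12, chr4:116685544-116700822, plus strand), was at 335, 427 and 420 FPKM in control, at 412, 420 and 193 in MFN1-KD and at 370, 210 and 234 in H3.3-KD. Control and H3.3-KD overlapped through H3.3-KD replicate 1, and only replicate 3 of MFN1-KD lay outside the control range. *Prdx2*, its close relative known for its abundance in red blood cells (ENSMUSG00000005161.15, chr8:84969587-84974834, plus strand), was at 40.3, 41.6 and 47.7 FPKM in control, at 26.4, 79.7 and 16.8 in MFN1-KD and at 20.03, 23.7 and 27.0 in H3.3-KD. The H3.3-KD libraries lay below the controls, as for 18.9% of all genes tested, and the MFN1-KD libraries lay on both sides. *Prdx2* in H3.3-KD was 54.6% of control, a log2 fold change of -0.85 (SE 0.46, 95% interval -1.87 to 0.17) with an adjusted p of 0.188 by limma. Of the 3 tested blood markers, 1 was called lower in H3.3-KD, the globin gene *Hba-a1*, at 10.6 ± 3.43 FPKM against 70.2 ± 6.49 in control. *Cd68*, a marker of macrophages, was at 9.42 ± 1.10 FPKM against 5.52 ± 0.917 and was not called. *Hbb-bs*, another globin gene, was at 0, 29.6 and 25.4 FPKM in control and at 0, 0 and 1.11 in H3.3-KD, and was not called. In control replicate 1, where *Hbb-bs* was at 0, *Hba-a1* was at 77.7 FPKM, so these markers differed within a library. Their part in the *Prdx2* value was not tested. *Rnaseh2a* and *Junb* overlap *Prdx2* on the opposite strand, with 16.5 to 95.5 and 0.28 to 5.84 FPKM, and no strand setting was given, so their fragments cannot be told apart from those of *Prdx2*.

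The genes of mitochondrial thiol defence had lower means in MFN1-KD than in control, with wide spread, and none passed the threshold. *Prdx3*, the peroxiredoxin of the mitochondrial matrix (ENSMUSG00000024997.7, chr19:60864051-60874556, minus strand), was at 74.5, 111 and 128 FPKM in control, at 52.7, 51.1 and 10.9 in MFN1-KD and at 68.2, 79.2 and 18.4 in H3.3-KD. All MFN1-KD libraries lay below the controls, as for 16.8% of all genes tested, and replicate 3 was the lowest library in both knockdown groups. *Prdx3* in MFN1-KD was 36.5% of control, a log2 fold change of -1.68 (SE 0.66, 95% interval -3.14 to -0.22) with an adjusted p of 0.164 by limma. *Prdx5*, whose enzyme works in mitochondria, peroxisomes and cytosol (ENSMUSG00000024953.17, chr19:6906697-6910106, minus strand), was at 89.8, 105 and 107 FPKM in control, at 90.2, 55.8 and 40.01 in MFN1-KD and at 99.8, 90.3 and 91.4 in H3.3-KD. MFN1-KD replicate 1 lay within the control range and the other MFN1-KD libraries lay below it, giving 61.6% of control and a log2 fold change of -0.77 (SE 0.28, adjusted p = 0.144 by limma). *Trmt112* overlaps *Prdx5* on the opposite strand with 196 to 378 FPKM. *Txn2*, the mitochondrial thioredoxin that keeps PRDX3 and PRDX5 reduced (ENSMUSG00000005354.16, chr15:77915047-77929006, minus strand), was at 93.5, 116 and 64.8 FPKM in control, at 56.5, 75.0 and 21.2 in MFN1-KD and at 105, 96.0 and 55.2 in H3.3-KD. Its groups overlapped, and MFN1-KD stood at 55.8% of control (log2 fold change -0.97, SE 0.45, adjusted p = 0.227 by limma).

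**Figure D2:**
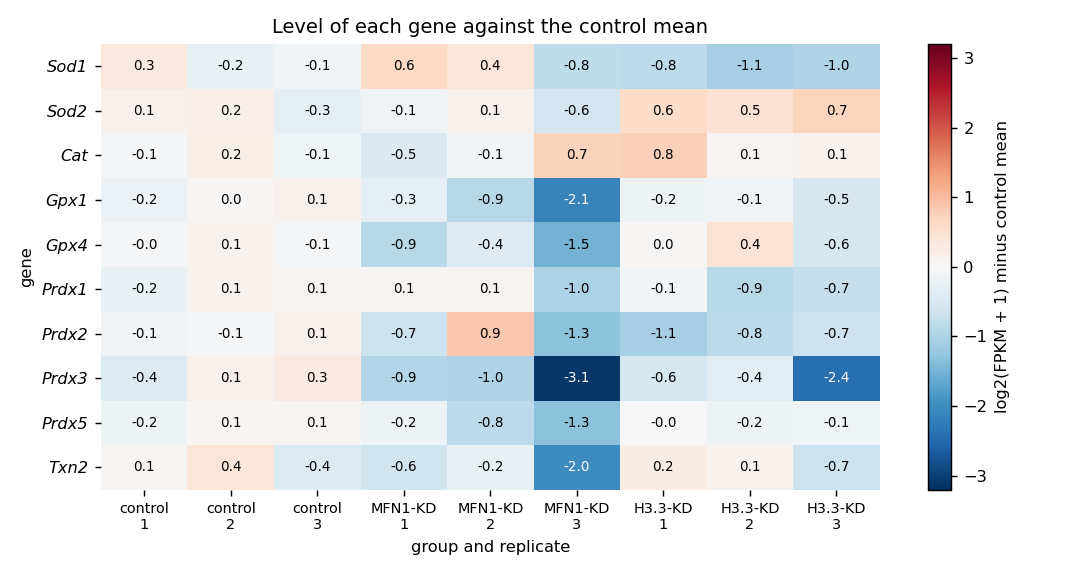
Difference of log2(FPKM + 1) from the control mean (colour and printed value) for each of the 10 genes (rows) in each of the 9 libraries (columns). MFN1-KD replicate 3 is the lowest library for 8 of the 9 tested genes, and H3.3-KD libraries are below the control mean for *Sod1* and above it for *Sod2*.

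Replicate 3 of MFN1-KD carried much of the lower values in that group. It was the lowest of the 9 libraries for 8 of the 9 tested genes, all but *Sod1*, where 33.5% of all genes tested were lowest there. Against the mean of MFN1-KD replicates 1 and 2 it held 20.9% of *Prdx3*, 31.7% of *Prdx2*, 32.3% of *Txn2*, 33.2% of *Gpx1*, 39.6% of *Sod1* and 46.5% of *Prdx1*. *Gpx4*, *Prdx5* and *Sod2* were at 54.2%, 54.8% and 64.7%, and the median of all tested genes was 72.0%. Without replicate 3 the log2 fold change of MFN1-KD against control was -0.96 for *Prdx3*, -0.59 for *Gpx1* and -0.65 for *Gpx4*. The 10 genes added up to 1820, 1884 and 1873 FPKM in control, to 1862, 1738 and 761 in MFN1-KD and to 1589, 1435 and 1213 in H3.3-KD. The sum of MFN1-KD replicate 1 thus lay within the control range, those of replicates 2 and 3 lay below it, and so did all H3.3-KD sums. The FPKM of all entries also added up to less in H3.3-KD, 933452 to 968604 against 1113563 to 1331977 in control. The sums of the 10 genes are not scaled to these totals, so they do not show a smaller share of each library.

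Against control, no antioxidant enzyme passed an adjusted p under 0.05 by limma in MFN1-KD, while 1.15% of all 13011 genes tested were called higher and 2.20% lower. At an unadjusted p under 0.05 there were 4 of the 9, *Gpx1*, *Gpx4*, *Prdx3* and *Prdx5*, and 3025 genes over all. At the threshold of the study, a change above 2-fold with an unadjusted p under 0.05, 2 of 9 were lower, *Prdx3* and *Gpx1*, against a background of 9.05% lower, and 0 were higher, against 5.02%. The study used this threshold with DESeq2 and it is used here with limma, so counts at it are not the study's own calls. The groups did not overlap for 3 genes that were lower, *Prdx3*, *Gpx1* and *Gpx4*, and for none that was higher, where the background was 16.8% lower and 11.4% higher. The median log2 fold change of the 9 genes was -0.77 and that of all genes tested -0.08, and 8 of the 9 lay below the latter. Without MFN1-KD replicate 3 the median of all genes was 0.0073. *Sod1* at 0.51, *Sod2* at 0.010, *Prdx1* at 0.085 and *Prdx2* at 0.094 then lay above it. *Prdx3*, *Gpx1*, *Gpx4*, *Prdx5* and *Txn2* stayed below it, at -0.96, -0.59, -0.65, -0.49 and -0.44. Upper-quartile scaling moved the median of all genes to -0.44, and with it *Gpx4* passed the threshold at -1.42.

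In H3.3-KD none of the 9 passed the adjusted p by limma either, although 21.8% of all genes were called higher and 9.12% lower. At an unadjusted p under 0.05 there were 2 of the 9, *Sod1* and *Sod2*, and 5472 genes over all. At the threshold of the study 0 of 9 were called, against 23.9% of all genes higher and 9.39% lower. The groups did not overlap for *Sod2*, which was higher, against 34.5% of all genes, and for *Sod1* and *Prdx2*, which were lower, against 18.9%. The median log2 fold change of the 9 genes was -0.27 and that of all genes 0.26, and 8 of the 9 lay below the latter. Median-ratio scaling moved the median of all genes to -0.00 and the calls over all genes from 2841 higher and 1187 lower to 2078 and 1778, and with it *Sod1* at -1.30, *Prdx1* at -0.92 and *Prdx2* at -1.19 were called lower. Of the 18 alternatives, 8 gave a call for *Sod1*, 4 for *Sod2*, 4 for *Prdx2* and 2 for *Prdx1*, while the other 5 tested genes were called in none.

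Both knockdowns share their controls, so the difference between them was tested directly. H3.3-KD was higher than MFN1-KD for 2 of 9 genes, *Sod2* and *Gpx4*, against 27.6% of all genes called higher, and lower for *Sod1*, against 11.0% called lower. At the threshold of the study *Sod1* was lower, against 11.0%, and 0 of 9 were higher, against 29.1%. The libraries did not overlap for *Sod2* and *Prdx5*, which were higher, against 33.1%, and for *Sod1*, which was lower, against 14.8%. The adjusted p of *Gpx1*, *Prdx5* and *Txn2*, at 0.84, 0.67 and 0.86 on the log2 scale, was 0.112, 0.0855 and 0.154 by limma.

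**Figure D3:**
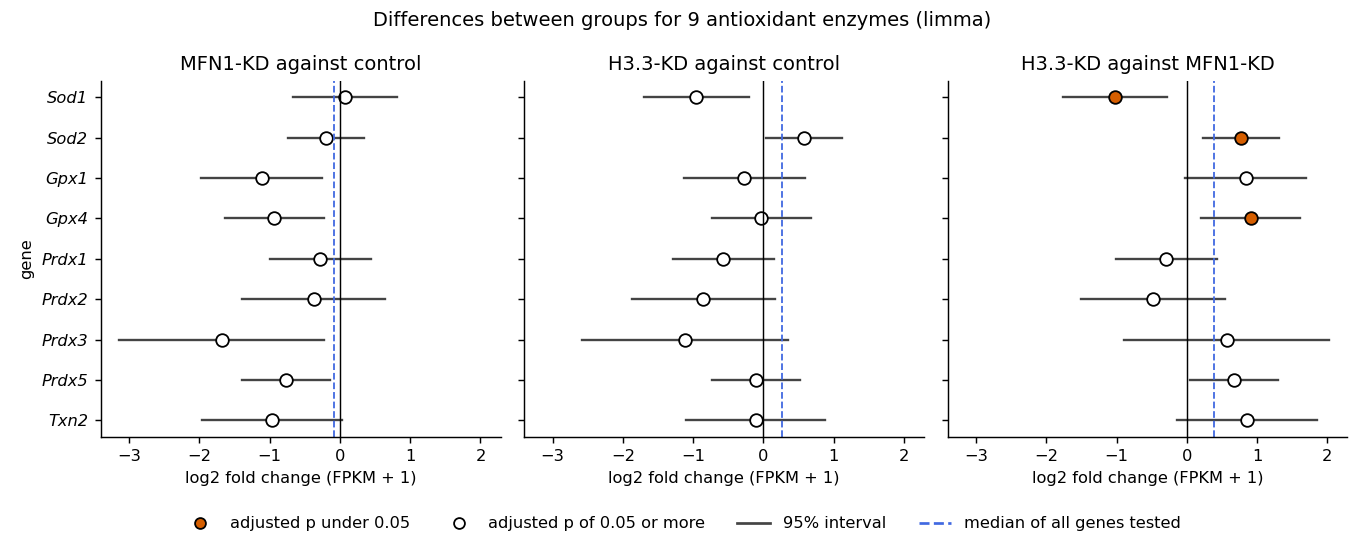
Log2 fold change of log2(FPKM + 1) (x axis) for the 9 tested genes (y axis) in the 3 comparisons, with 95% intervals from limma and the median of all genes as a dashed line. Filled points, which passed an adjusted p under 0.05, appear only for *Sod1*, *Sod2* and *Gpx4* in H3.3-KD against MFN1-KD.

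Across the 9 libraries the gene most like 8 of the 9 tested members, by Pearson's r of log2(FPKM + 1) among genes that averaged 10 FPKM or more, was *Nvl* for *Sod1* (r = 0.96), *Zdhhc4* for *Sod2* (0.97), *Nfs1* for *Gpx1* (0.99) and *Fbxo6* for *Gpx4* (0.98). It was *B230307C23Rik* for *Prdx2* (0.96), *Acp1* for *Prdx3* (0.98), *Szrd1* for *Prdx5* (0.98) and *Chchd10* for *Txn2* (0.96). Among the members themselves the highest r was that of *Gpx1* and *Prdx5* (0.96), then that of *Gpx4* and *Txn2* (0.92), and the lowest was that of *Sod1* and *Sod2* (-0.37). These values describe 9 libraries that share groups and the low values of MFN1-KD replicate 3. Each r with a gene outside the 10 is the highest over all genes searched, which by itself favours high values. What an arbitrary gene would reach was not tested.

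The genes around these enzymes fall into 6 lists, and their calls are read against the 21.8% of all genes called higher and 9.12% called lower in H3.3-KD and the 1.15% and 2.20% in MFN1-KD. The list called thiol recycling holds mainly genes around thioredoxin, glutathione and the repair of oxidised proteins. Not all of them work by returning these to a reduced form. Of its 18 tested genes, 6 rose and 2 fell in H3.3-KD, with a median log2 fold change of 0.78 against 0.26 over all genes. That is 33.3% higher and 11.1% lower, so the share called lower lay near that of all genes. *Msrb1*, a methionine sulfoxide reductase, was at 3.33, 2.91 and 3.19 FPKM in control and at 57.6, 59.8 and 58.1 in H3.3-KD (log2 fold change 3.85, SE 0.33, adjusted p = 7.6e-05 by limma). *Sesn2*, the stress-induced sestrin 2, was at 4.54, 1.05 and 1.15 FPKM in control and at 71.3, 115 and 134 in H3.3-KD (5.17, SE 0.55, adjusted p = 0.000203 by limma). *Gsr*, the glutathione reductase, was at 22.4, 16.5 and 15.1 FPKM in control and at 70.4, 55.5 and 60.7 in H3.3-KD (1.75, SE 0.26, adjusted p = 0.000986 by limma). In these 3 genes every H3.3-KD library lay above every control. *Glrx2*, a mitochondrial glutaredoxin, fell from 127 ± 10.6 to 33.9 ± 5.82 FPKM (SD, n = 3), and *Txn1*, the cytosolic thioredoxin that serves PRDX1 and PRDX2, was at 99.0, 167 and 173 FPKM in control and at 58.0, 35.5 and 34.3 in H3.3-KD (-1.76, SE 0.51, adjusted p = 0.0249 by limma). *Txn1* lost its call in 6 of the 18 alternatives, among them without control replicate 2 or 3 and without H3.3-KD replicate 2 or 3. In MFN1-KD none of the 18 genes was called.

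Of the 12 tested genes of the NRF2 pathway, which senses oxidants through KEAP1 and induces antioxidant genes, 5 rose (41.7%, against 21.8% of all genes) and 2 fell (16.7%, against 9.12%) in H3.3-KD, with a median log2 fold change of 1.18 against 0.26 over all genes. *Sqstm1*, the autophagy receptor p62 that binds KEAP1, rose from 43.8 ± 15.0 to 122 ± 22.4 FPKM (1.49, SE 0.30, adjusted p = 0.00419 by limma). *Maff* and *Mafk*, small MAF partners of NRF2, rose by 2.79 (SE 0.39, adjusted p = 0.00064) and 2.49 (SE 0.45, adjusted p = 0.00262) on the log2 scale by limma. *Rbx1* and *Cul3*, parts of the ubiquitin ligase that degrades NRF2, fell by 1.63 (SE 0.19, adjusted p = 0.000278) and 1.24 (SE 0.37, adjusted p = 0.0288) by limma, and *Cul3* was called in 11 of the 18 alternatives. *Hmox1*, the inducible heme oxygenase, was called higher as well and was low throughout, at 1.07 ± 0.520 FPKM in control and 9.73 ± 3.33 in H3.3-KD. *Nfe2l2*, which encodes NRF2, was at 3.37 ± 0.624 FPKM in control, 6.68 ± 4.11 in MFN1-KD and reached 7.85 ± 0.486 in H3.3-KD, and it was not called (adjusted p = 0.0717 in H3.3-KD by limma). *Nqo1*, a widely used NRF2 target, did not exceed 1.45 FPKM in any library. *Keap1* was at 3.95 ± 1.41 FPKM in control and 11.7 ± 4.94 in H3.3-KD, and it was not called (1.32, SE 0.64, adjusted p = 0.142 by limma). *Ftl1* and *Fth1*, also in this list, were at 0.28 and -0.24 on the log2 scale in H3.3-KD against control and were not called. In MFN1-KD none of the 12 genes was called.

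In 3 other lists the share called in H3.3-KD was under that of all genes, with 0 of 4, 1 of 10 and 0 of 9 tested genes called. Of the remaining superoxide dismutase, glutathione peroxidase and peroxiredoxin genes, 4 of 9 were tested and none was called against control. *Prdx6* was at 245 ± 37.0 FPKM in control, 145 ± 39.2 in MFN1-KD and reached 409 ± 146 in H3.3-KD, and it was called higher in H3.3-KD than in MFN1-KD (1.46, SE 0.31, adjusted p = 0.00433 by limma). Of 10 tested genes of NADPH supply, *Pgd* of the pentose phosphate pathway rose in H3.3-KD (1.48, SE 0.28, adjusted p = 0.0034 by limma) and *Nadk*, the NAD kinase, fell in MFN1-KD from 41.6, 45.5 and 37.4 to 14.3, 19.0 and 9.02 FPKM (-1.54, SE 0.28, adjusted p = 0.0333 by limma). Of 9 tested genes of selenocysteine incorporation, on which GPX1 and GPX4 depend, *Sephs1* was called lower in MFN1-KD, from 23.6, 22.5 and 23.0 to 10.7, 11.6 and 9.83 FPKM, just inside the threshold (-1.04, SE 0.25, adjusted p = 0.04997 by limma). Only 6 of the 18 alternatives gave a call for *Sephs1*. The enzyme known to make selenophosphate is its relative SEPHS2. *Sephs2* had a higher mean in MFN1-KD, at 16.5 ± 8.21 FPKM against 9.01 ± 2.91 in control, and was not called (0.72, SE 0.42, adjusted p = 0.342 by limma). Of 11 tested genes listed under peroxisome import, *Pex16* and *Pex19* fell in MFN1-KD (18.2%, against 2.20% of all genes), by 1.50 (SE 0.30, adjusted p = 0.036) and 1.20 (SE 0.24, adjusted p = 0.0377) by limma. In H3.3-KD 4 of the 11 rose (36.4%, against 21.8% of all genes), *Pex5*, *Pex6*, *Pex14* and *Pex19*, with *Pex19* at 0.76 (SE 0.24, adjusted p = 0.0373) and *Pex5*, the import receptor, at 1.39 (SE 0.45, adjusted p = 0.0395) by limma. Only 9 of the 18 alternatives gave a call for *Pex19* and 7 for *Pex5*, and each lost it without control replicate 2 or 3 and without H3.3-KD replicate 2 or 3. Of the 20 list genes called in H3.3-KD, 9 were called under all 18 alternatives, *Msrb1*, *Sesn2*, *Gsr*, *Gclm*, *Glrx2*, *Mafg*, *Rbx1*, *Sqstm1* and *Pgd*. None of the 4 called in MFN1-KD was, since each lost its call on leaving out any control replicate or replicates 1 or 2 of H3.3-KD, and in the fit of only 6 libraries.

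**Figure D4:**
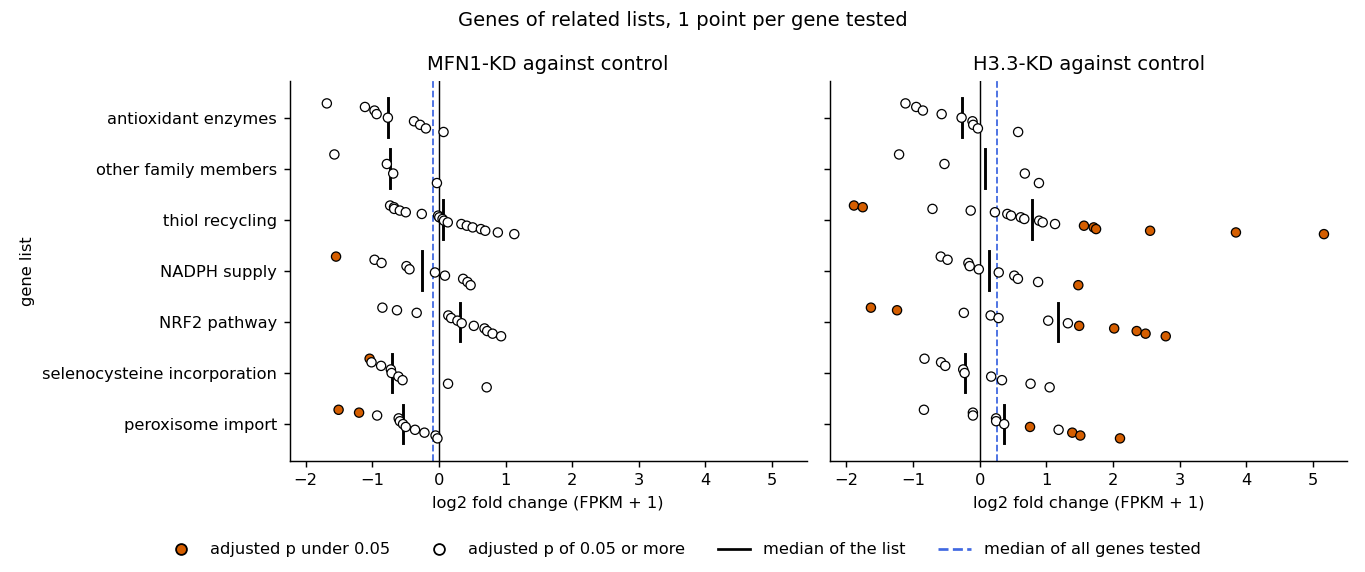
Log2 fold change of log2(FPKM + 1) (x axis) of each tested gene of the 10 antioxidant enzymes and 6 related lists (y axis), for MFN1-KD and H3.3-KD against control. Filled points passed an adjusted p under 0.05, short bars are list medians and the dashed line is the median of all genes. In H3.3-KD filled points number 6 higher and 2 lower of 18 in thiol recycling, and 5 higher and 2 lower of 12 in the NRF2 pathway. Peroxisome import has 4 higher of 11 and NADPH supply 1 higher of 10. The antioxidant enzymes, the other family members and selenocysteine incorporation have 0. Over all genes 21.8% were called higher and 9.12% lower.

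Some fragments of these genes could be shared with near-identical copies. *Gpx4-ps2* matches *Gpx4* at 99.7% over 733 bases and was listed at 4.25 to 16.6 FPKM, up to 12.8% of *Gpx4* in a library. *Gm8566* matches *Sod1* at 98.0% over 298 bases and was at most 5.46% of *Sod1*, and *Gm7204* and *Gm21399* match *Prdx1* at 97.5% and 98.3% over 597 bases and were at most 1.08% and 1.74% of it. The values of *Gpx4* in particular depend on how the authors' counting assigned such fragments.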

How the data were processed

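Libraries were made from pools of 8-cell embryos by Smart-Seq2, with oligo-dT priming and PCR. Per the labels, the authors trimmed reads with cutadapt 1.16 and mapped them to mm10 with STAR. The authors deposited FPKM, given to 2 decimals. The program, annotation and strand setting are not given in the sources used here. Low values did not fall on steps of whole fragments (at most 25.8% within 0.1 of a whole number, 20% by chance), so the depth is unknown and no counting interval is given. FPKM are relative to each library's total, so a few abundant genes can shift all others, and oligo-dT priming can favour 3' ends.

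Groups were taken from the sample titles. The 13011 genes that averaged 1 FPKM or more were tested on log2(FPKM + 1) in limma 3.58.1 (R 4.3.3; trend and robust options, all 9 libraries, no covariate), as no counts were used here. The Benjamini-Hochberg adjustment covered all of these genes, a call is an adjusted p under 0.05, and fold changes understate those of low genes. The test was checked on simulated data. Levels of single genes and ratios used Python 3.11.15. Of the 55335 symbols, 53543 are in GENCODE M21 (GRCm38), which gave positions. BLAST+ 2.17.0 found copies (at least 95% identity over 250 bases). All members were named, and of each related list up to 3 called genes a direction with the smallest adjusted p and a mean of at least 5 FPKM. *Hmox1*, *Prdx6*, *Nfe2l2*, *Nqo1*, *Keap1*, *Ftl1*, *Fth1*, *Sephs2*, *Gclm*, *Mafg*, *Pex6*, *Pex14* and the marker genes were named after their values were seen. The members and lists were chosen with earlier results of these data known. Alternatives were another filter, pseudocount or scaling, removal of GC and length trends, a replicate block, library weights, only 6 libraries, and each library left out. The gene most like *Prdx1* across libraries is not reported here.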

Additional observations from a re-analysis of the deposited data

How the results depend on the processing

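Against control the number of the 9 tested enzymes called in MFN1-KD, 0 of 9, was 1 under upper-quartile scaling (*Gpx4*) and 0 under the other alternatives. In H3.3-KD, also 0 of 9, it was 1 with a mean of at least 10 FPKM, 3 under median-ratio scaling, 2 with GC and length trends removed, 4 with library weights and 3 with only the 6 libraries compared. It ranged from 0 to 2 when a library was left out, with a call for *Sod1* without MFN1-KD replicate 1, for *Prdx2* without MFN1-KD replicate 2, and for *Sod1* and *Sod2* without MFN1-KD replicate 3. In H3.3-KD against MFN1-KD the 3 calls became 0 with no filter, 1 under median-ratio scaling, 0 with only the 6 libraries compared and 0 to 2 when a library was left out (0 without H3.3-KD replicate 1 or 2).

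In MFN1-KD *Sod1* changed sign under upper-quartile scaling (-0.42) and with GC and length trends removed (-0.13), and leaving out a library gave -0.21 to 0.51. Leaving out a library gave -0.36 to 0.010 for *Sod2*, -0.47 to 0.085 for *Prdx1* and -0.996 to 0.094 for *Prdx2*, whose positive values came without MFN1-KD replicate 3. In H3.3-KD *Gpx4* was 0.14 with library weights and -0.26 to 0.23 with a library left out, and *Txn2* was -0.33 to 0.17. In H3.3-KD against MFN1-KD *Prdx1* was 0.0019 under upper-quartile scaling, *Prdx5* was -0.24 with GC and length trends removed, and leaving out a library gave -0.95 to 0.14 for *Prdx2* and -0.15 to 1.21 for *Prdx3*. The cause was not tested.

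Libraries with the same replicate number in the labels showed little pairing over all genes, as their deviations correlated at only -0.05 to 0.16. This cannot tell whether libraries with the same number were handled together. With the replicate number as a block, 0 enzymes were called in MFN1-KD, 1 in H3.3-KD (*Sod1*, adjusted p = 0.0374 by limma) and 4 in H3.3-KD against MFN1-KD (with *Txn2*). Over all genes the block left 6 higher and 25 lower calls in MFN1-KD, against 150 and 286 without it. Calls over all genes in MFN1-KD ran from 0 without control replicate 2 or 3 (2002 and 1979 genes at an unadjusted p under 0.05) to 570 higher and 823 lower with library weights. Upper-quartile scaling gave 68 higher and 1084 lower. Depth is unknown, so what it limits could not be given.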
